A study of Mus musculus with 60 samples.

Results

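The last 4 h of the dark phase were examined in control kidney, from ZT20 to ZT0, where ZT0 is the time at which lights went on. The comparison rests on 10 of the 60 RNA-Seq samples of the series, namely the 5 control mice at ZT0 and the 5 control mice at ZT20, chosen by genotype and time point as their labels give them. Control mice were male Bmal1lox/lox littermates, bred on a C57BL/6J background, that lack the Pax8-rtTA and LC-1 Cre transgenes. At 8 weeks of age they drank doxycycline (DOX; 2 mg/ml) with 20 mg/ml sucrose for 2 weeks, as the cKOt mice did, and kidneys were taken 4 weeks after DOX ended. In cKOt mice the same lox alleles are recombined by a DOX-induced Cre that Pax8-rtTA drives in the renal tubule, so that other kidney cells keep Bmal1. The 10 cKOt mice at ZT0 and ZT20 show the same interval without tubular Bmal1, and all 60 samples share the estimate of the spread behind every test. All mice lived in 12 h of light and 12 h of dark with food at all times, so that the late dark phase is the end of their active and feeding period.

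The labels name the tissue as renal tubule, whereas the methods describe frozen pieces of perfused left kidneys. Markers of other kidney cells were present in every one of the 10 libraries: the 5 podocyte markers summed to 319 to 415 CPM (counts scaled to library size) per mouse, the 6 endothelial markers to 365 to 466 CPM and the 10 proximal tubule markers to 39460 to 57570 CPM. CPM values here use library sizes scaled by the trimmed mean of M values (TMM). In such bulk tissue, fewer cells of a type and less RNA per cell cannot be told apart. Between 17834053 and 20369950 reads per mouse were assigned to genes, and 15546 genes that reached 1 CPM in any of the 60 samples were tested. ZT20 replicates 1 and 2 stood further from the rest of their group than replicates 3, 4, and 5 did from each other. Averaged over genes, the squared difference of 2 libraries was 16.8 to 25.5 times that of counting alone for pairs with replicate 1 or 2, against 8.40 to 11.6 times for the other pairs. The authors chose these 5 mice from 6 per group by RNA integrity and distance from the other replicates, so the spread between mice may be narrower than in unselected mice. The targeted gene, Arntl (Bmal1), had 23.5 ± 1.42 CPM at ZT20 and 24.4 ± 1.57 CPM at ZT0 in cKOt kidney, against 47.2 ± 3.78 and 48.4 ± 10.2 CPM in control kidney (SD, n = 5).

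The circadian clock is a loop of transcription and its repression. BMAL1 with CLOCK or its paralog NPAS2 activates genes that carry E-boxes, among them the Per, Cry, and Nr1d (REV-ERB) genes and the PAR bZIP factors, and the PER and CRY proteins then repress that activation. In a second loop, ROR receptors activate and REV-ERB receptors repress Bmal1 and other genes through a shared DNA element. PAR bZIP factors act on D-boxes, and many kidney transporters and metabolic enzymes follow these loops over the day.

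Few genes changed in this interval. Of the 15546 genes, 43 passed an adjusted p of 0.05, which is 0.277% (edgeR quasi-likelihood F test, Benjamini-Hochberg adjustment). Of these, 14 were higher at ZT0 (0.0901%) and 29 lower (0.187%). The 43 genes had a median absolute log2 fold change of 0.68, and 13 of them differed by 2-fold or more, 3 upward and 10 downward. Over all genes the median log2 fold change was -0.0072, and 1545 genes (9.94%) had an unadjusted p under 0.05. The precision was enough to bound most changes: for 10389 of the 10794 genes with a mean of at least 5 CPM (96.2%), the 95% interval of the change lay within 1.5-fold in either direction, and over all genes this held for 76.2%. The count itself depended on the mice and on the model, as it was 12 to 43 when each of the 10 mice was left out in turn, 13 without both ZT20 replicates 1 and 2, and 4 when the 10 samples were fitted alone. Of the 43 genes, 11 still passed without both of these replicates, among them Cry1, Cry2, Nr1d1, Hlf, Lingo4, Hspa8, Cdt1, Cyp2j7, Hpgd, and Trdn, and every other gene named as passing from ZT20 to ZT0 in control kidney lost its call there.

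The number of genes that passed differed widely between the intervals of the day in control kidney. In the next interval, from ZT0 to ZT4, 1833 genes passed the test (11.8%), 881 of them upward. From ZT4 to ZT8 there were 36 (0.232%), from ZT8 to ZT12 there were 437 (2.81%), and from ZT12 to ZT16, after lights off, there were 1623 (10.4%). From ZT16 to ZT20 there were 102 (0.656%). Adjacent intervals share a group of mice, so these counts are not independent of each other. The median absolute log2 fold change over all genes varied less than the counts. It was 0.082 from ZT20 to ZT0, against 0.118 from ZT0 to ZT4 and 0.071 from ZT4 to ZT8. Without the RUVs factors, which remove unwanted variation, the counts were 1009, 20, 130, 1325, 98, and 27 from ZT0 onward, so the interval before dawn then held the second lowest number, as it did with them.

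**Figure D1:**
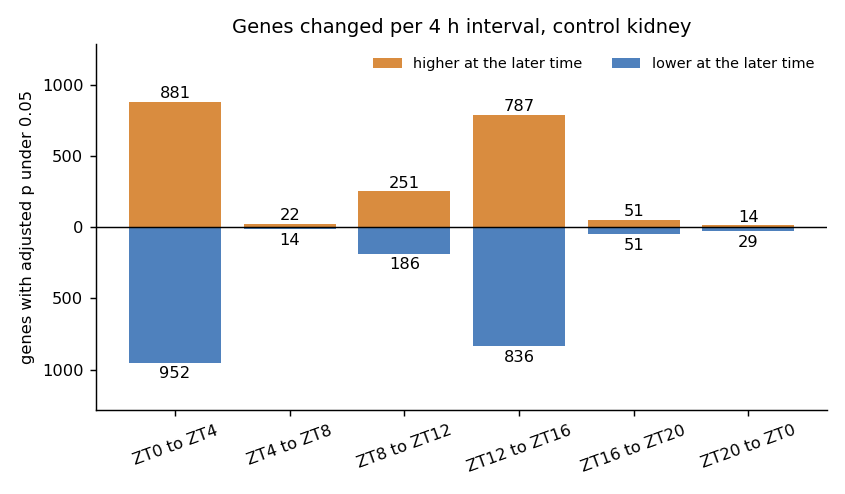
Number of genes with an adjusted p under 0.05 (vertical axis) in each of the 6 intervals of 4 h in control kidney, with genes higher at the later time above 0 and genes lower below 0. The interval from ZT20 to ZT0 held 14 and 29 genes, against 881 and 952 from ZT0 to ZT4.

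Among clock genes, Cry1, Cry2, and Hlf fell and Nr1d1 rose, and these 4 are among the 19 clock genes that were followed whether or not they changed. Promoters of Cry1, Cry2, Hlf, and Nr1d1, and one of 2 listed for Arntl, are shown because these genes separate here into some that moved and one that did not. Each stretch of RefSeq sequence (GRCm38.p6, written 5′ to 3′ on the strand of the gene) runs from 250 bases before to 50 bases after a transcript start, and capitals mark a match to 1 of the 5 searched motifs.
Cry1: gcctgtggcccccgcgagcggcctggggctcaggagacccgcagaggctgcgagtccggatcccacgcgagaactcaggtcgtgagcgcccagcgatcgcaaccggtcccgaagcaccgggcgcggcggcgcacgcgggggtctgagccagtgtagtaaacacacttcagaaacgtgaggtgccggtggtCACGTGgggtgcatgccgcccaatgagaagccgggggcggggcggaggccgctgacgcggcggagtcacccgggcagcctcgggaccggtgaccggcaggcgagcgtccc
Cry2: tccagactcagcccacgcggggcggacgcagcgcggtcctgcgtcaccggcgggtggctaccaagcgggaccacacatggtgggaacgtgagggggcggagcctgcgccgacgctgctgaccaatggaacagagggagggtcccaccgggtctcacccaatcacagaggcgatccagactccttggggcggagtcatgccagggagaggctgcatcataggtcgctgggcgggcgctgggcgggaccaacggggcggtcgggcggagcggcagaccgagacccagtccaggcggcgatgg
Hlf: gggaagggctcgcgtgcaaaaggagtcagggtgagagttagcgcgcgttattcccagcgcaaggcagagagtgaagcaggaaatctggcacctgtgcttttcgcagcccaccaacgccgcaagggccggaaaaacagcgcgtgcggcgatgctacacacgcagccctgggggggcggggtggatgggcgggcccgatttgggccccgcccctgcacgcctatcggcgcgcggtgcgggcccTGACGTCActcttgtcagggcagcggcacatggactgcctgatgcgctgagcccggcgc
Nr1d1: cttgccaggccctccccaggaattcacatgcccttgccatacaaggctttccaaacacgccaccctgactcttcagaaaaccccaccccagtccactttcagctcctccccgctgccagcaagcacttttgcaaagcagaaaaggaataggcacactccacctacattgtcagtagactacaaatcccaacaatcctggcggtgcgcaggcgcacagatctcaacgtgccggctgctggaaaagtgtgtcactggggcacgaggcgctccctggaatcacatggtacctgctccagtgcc
Arntl: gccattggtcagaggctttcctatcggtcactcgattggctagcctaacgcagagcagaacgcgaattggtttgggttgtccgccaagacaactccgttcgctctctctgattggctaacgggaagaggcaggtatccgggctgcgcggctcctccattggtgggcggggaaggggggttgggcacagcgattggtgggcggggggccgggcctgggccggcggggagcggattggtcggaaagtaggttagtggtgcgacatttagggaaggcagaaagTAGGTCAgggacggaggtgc
The Cry1 stretch is chr10:85185005-85185304, the Cry2 stretch chr2:92434020-92434319, the Hlf stretch chr11:90390868-90391167, and the Nr1d1 stretch chr11:98775328-98775627, all on the minus strand, and the Arntl stretch is chr7:113207261-113207560 on the plus strand. Each holds the upstream sequence and the first bases of the first exon. The Cry1 promoter has the E-box CACGTG, whose first base lies 60 bases before the start, and 7.15% of the 32851 promoters in the RefSeq table hold this motif on either strand. The Hlf promoter has the cAMP element TGACGTCA 9 bases before the start, a motif held by 1.79% of promoters. The Arntl stretch has the ROR/REV-ERB element TAGGTCA with its first base 31 bases into the transcript (2.61% of promoters). The other Arntl window, chr7:113207215-113207514 on the same strand, holds none of the motifs, and none of the motifs was found in the Cry2 and Nr1d1 windows. The other motifs searched were the D-box TTATGTAA or TTACGTAA (1.06% of promoters) and the heat shock pair GAANNTTC or TTCNNGAA (15.1%). The match says nothing of whether a factor was bound.

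The cryptochromes are repressors of BMAL1 with CLOCK, and both fell. In the 4 library batches that held both times, the difference in log2(CPM + 0.5) was -1.16 to -0.57 for Cry1 and -1.0 to -0.61 for Cry2. Cry1 had 27.4, 25.0, 19.9, 19.8, and 23.4 CPM at ZT20 and 14.5, 13.3, 11.4, 9.34, and 8.52 CPM at ZT0. The groups did not overlap, and the log2 fold change was -1.01 ± 0.11 (SE; adjusted p = 6.35e-09, edgeR). Cry2 had 28.7, 31.6, 24.4, 28.9, and 27.0 CPM at ZT20 and 18.6, 15.3, 15.5, 14.4, and 18.1 CPM at ZT0. It fell by 0.81 ± 0.07 on the log2 scale (adjusted p = 1.48e-12, edgeR), again without overlap. The 2 genes differed in their course: Cry2 had fallen already from ZT16 to ZT20 (log2 fold change -0.32, adjusted p = 0.0055), was lowest at ZT0 and was higher again by ZT4 (26.2 ± 1.49 CPM), whereas Cry1 went on falling to 2.75 ± 0.65 CPM at ZT4. The 3 period genes did not pass. Per2 had 32.5 to 77.2 CPM at ZT20 and 32.3 to 43.1 CPM at ZT0, with overlap, and a log2 fold change of -0.59 (95% interval -0.91 to -0.27, adjusted p = 0.11). Per1 was at 13.4 ± 1.49 and 12.1 ± 3.19 CPM and Per3 at 14.6 ± 2.88 and 16.0 ± 5.11 CPM.

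Nr1d1 encodes REV-ERB-alpha, the receptor that represses Bmal1. It had 2.15, 3.43, 7.51, 4.01, and 3.70 CPM at ZT20 and 12.8, 11.9, 22.9, 17.3, and 18.3 CPM at ZT0. All ZT0 mice were above all ZT20 mice, and the log2 fold change was 1.86 ± 0.25 (SE; adjusted p = 5.46e-06, edgeR), the largest increase among the genes that passed. Nr1d1 reached 74.5 ± 7.79 CPM at ZT4, so ZT0 fell early on its rise. The gene (chromosome 11, 98767932 to 98775333, minus strand) overlaps the end of Thra on the opposite strand, and Thra, the thyroid hormone receptor gene, had a log2 fold change of 0.24. Whether the deposited counts were made by strand is not given in the sources used here. The paralog Nr1d2 had 47.0 to 58.0 CPM at ZT20 and 42.4 to 98.5 CPM at ZT0, and its change did not pass (log2 fold change 0.43, 95% interval 0.15 to 0.71, adjusted p = 0.23). The repressors Bhlhe40, Bhlhe41, and Ciart did not pass, with log2 fold changes of 0.17, -0.03, and 0.27.

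Among the PAR bZIP activators, Hlf fell. It had 155, 166, 127, 140, and 142 CPM at ZT20 and 106, 101, 111, 80.2, and 105 CPM at ZT0, without overlap. The log2 fold change was -0.48 ± 0.08 (SE; adjusted p = 2.61e-04, edgeR), a 1.39-fold decrease that was lost only when the 10 samples were fitted alone, among 21 alternatives (adjusted p = 0.077). ZT0 was the lowest of its 6 means, and the gene was at 124 ± 18.6 CPM by ZT4. Its relatives did not pass: Tef had 228 ± 8.90 and 199 ± 29.0 CPM, and Dbp, near its daily minimum, had 2.15 ± 0.41 and 2.81 ± 1.54 CPM. Nfil3, a repressor at the same D-boxes, had 17.0 ± 4.36 and 20.4 ± 4.05 CPM.

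The activator genes Arntl, Npas2, and Clock were on a plateau. Arntl had 46.4, 43.7, 50.8, 51.6, and 43.8 CPM at ZT20 and 57.1, 47.6, 52.4, 53.8, and 31.3 CPM at ZT0, a log2 fold change of 0.09 with a 95% interval of -0.29 to 0.47. In the interval before, from ZT16, Arntl had risen by a log2 fold change of 1.07 (adjusted p = 0.0015, edgeR), and in the one after, to ZT4, it changed by -2.21 (adjusted p = 1.88e-11). Npas2 followed the same order, with log2 fold changes of 1.68, 0.16, and -1.80 over these 3 intervals. Only the middle change did not pass (adjusted p = 0.87). Clock had 140 ± 6.61 and 126 ± 16.8 CPM. Rora, which encodes an ROR activator, had 90.5 to 105 CPM at ZT20 and 62.3 to 88.6 CPM at ZT0 and did not pass (log2 fold change -0.35, 95% interval -0.57 to -0.14, adjusted p = 0.18), although its 2 groups did not overlap. Such groups without overlap were found for 241 of all genes (1.55%) and for 24 of the 43 that passed. As the 43 were picked on these same mice, their share is no independent check of the calls.

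**Figure D2:**
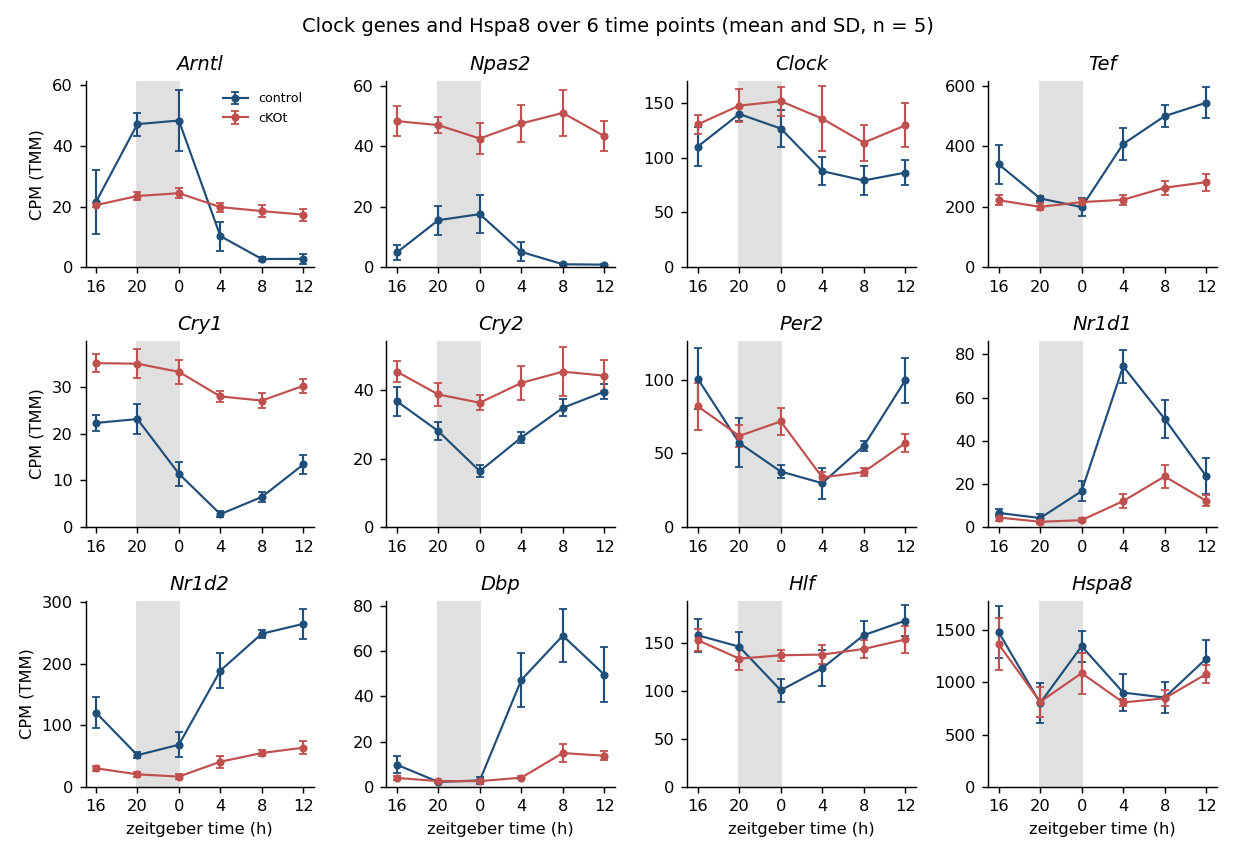
Mean CPM with SD (n = 5 mice) of 12 genes at the 6 time points, in order from ZT16, for control (blue) and cKOt (red) kidney; the grey band marks the interval from ZT20 to ZT0. In control kidney Cry1, Cry2, and Hlf descended within the band, Nr1d1 rose from 4.16 to 16.6 CPM, and Arntl and Npas2 were level.

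One ZT0 mouse lay at the edge of its group in several clock genes. ZT0 replicate 5 held the highest of the 5 ZT0 values of 8 of the 19 clock genes and the lowest of 4, and ZT20 replicate 3 was likewise highest or lowest in 12. It had 98.5 CPM of Nr1d2 against 42.4 to 72.8 in the other ZT0 mice, 5.56 CPM of Dbp against 1.97 to 2.32, and 31.3 CPM of Arntl against 47.6 to 57.1. From ZT0 to ZT4 the log2 fold change of the group was 4.00 for Dbp and -2.21 for Arntl. Cry1, Cry2, Hlf, and Nr1d1 also passed without it, and the number of genes called was 43 both with and without this mouse, of which 32 were shared.

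The change was also measured in cKOt kidney, where 55 genes passed from ZT20 to ZT0 (0.354%; 24 higher and 31 lower). That number rested on the RUVs factors, and 1 gene passed without them. Hif3a, a member of the hypoxia-inducible factor family with forms that can inhibit the others, was the 1 gene that passed in both genotypes. It had 1.34 to 2.54 CPM at ZT20 and 0.70 to 1.10 CPM at ZT0 in control kidney (log2 fold change -1.19, adjusted p = 0.0495, edgeR), and its log2 fold change was -1.31 in cKOt kidney (adjusted p = 0.034). Its control call held without 1 of the 10 mice and was lost without any of the other 9. Tested directly, the change differed between genotypes for 5 genes (0.0322%), and 1528 genes had an unadjusted p under 0.05. Cry2, Cry1, and Hlf were among the 5, and their changes did not pass in cKOt kidney.

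For Cry2 the cKOt values were 35.0 to 42.8 CPM at ZT20 and 34.4 to 39.6 CPM at ZT0, and the genotype difference of the change was -0.66 ± 0.09 (SE; adjusted p = 3.31e-05, edgeR). Cry1 had 30.8 to 38.6 CPM and 30.8 to 37.1 CPM, with a difference of -0.94 ± 0.15 (adjusted p = 1.95e-04). Both differences passed under all 19 alternatives that could be run on both genotypes. Hlf had 120 to 148 CPM and 131 to 145 CPM in cKOt kidney, and its difference of -0.52 ± 0.11 was close to the threshold (adjusted p = 0.044, and 0.014 to 0.16 over the alternatives). Without both ZT20 replicates 1 and 2 it was 0.16, without ZT0 replicate 2 it was 0.075, and without ZT0 replicate 4 it was 0.091. Nr1d1 was at 1.36 to 4.61 CPM and 1.99 to 4.56 CPM in cKOt kidney, and its genotype difference of 1.56 (95% interval 0.72 to 2.40) did not pass (adjusted p = 0.19). Another of the 5 was Ighv1-15, an immunoglobulin segment with 66 reads at ZT20 and 14 at ZT0 over the 5 control mice at each time. Its control change did not itself pass (log2 fold change -2.10, adjusted p = 0.32, edgeR). The genotype difference of -5.43 thus also includes a rise in cKOt kidney. The adjusted p of this difference was 0.0045 to 0.12 over the alternatives, the highest without both ZT20 replicates 1 and 2.

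**Figure D3:**
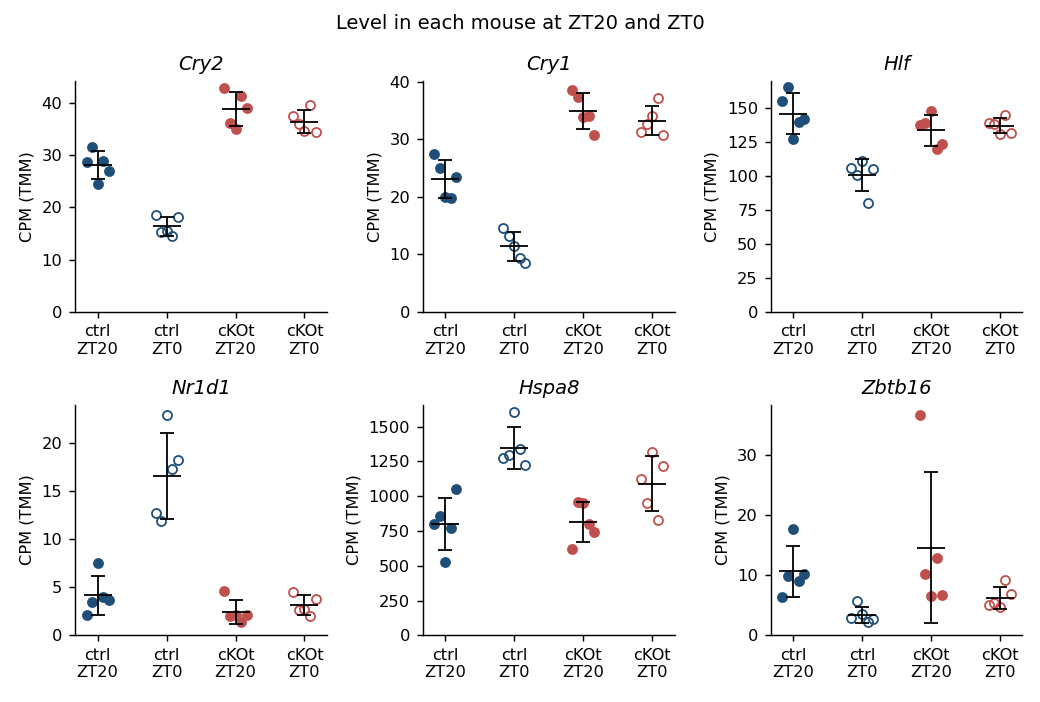
CPM in each mouse (points) with mean and SD (bars, n = 5) for Cry2, Cry1, Hlf, Nr1d1, Hspa8, and Zbtb16 at ZT20 (filled) and ZT0 (open), in control (ctrl, blue) and cKOt (red) kidney, with every axis starting at 0. Control ZT0 and ZT20 values do not overlap in any of the 6 panels, whereas the cKOt values do. As the 6 genes were called in control kidney, this contrast is no test of a genotype difference. That difference passed for Cry2, Cry1, and Hlf, but not for Nr1d1, Hspa8, and Zbtb16.

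In the direction of a larger increase in control kidney, no gene passed the test of the genotype difference. The 4 genes with the smallest p were Ak1 (adenylate kinase 1), Dpysl3, Parp11, and Cytip. Ak1 had 10.8 ± 1.69 and 14.4 ± 1.06 CPM in control kidney against 13.2 ± 1.61 and 11.9 ± 1.59 CPM in cKOt kidney, with an adjusted p of 0.070 for the difference (edgeR). The adjusted p was 0.072 for Dpysl3 (0.020 without both ZT20 replicates 1 and 2), 0.11 for Parp11, and 0.11 for Cytip. Of the 43 genes called in control kidney, 35 had the same sign in cKOt kidney and 42 had a smaller absolute log2 fold change there. As the 43 were picked on the control values, these counts are no test of a genotype difference.

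**Figure D4:**
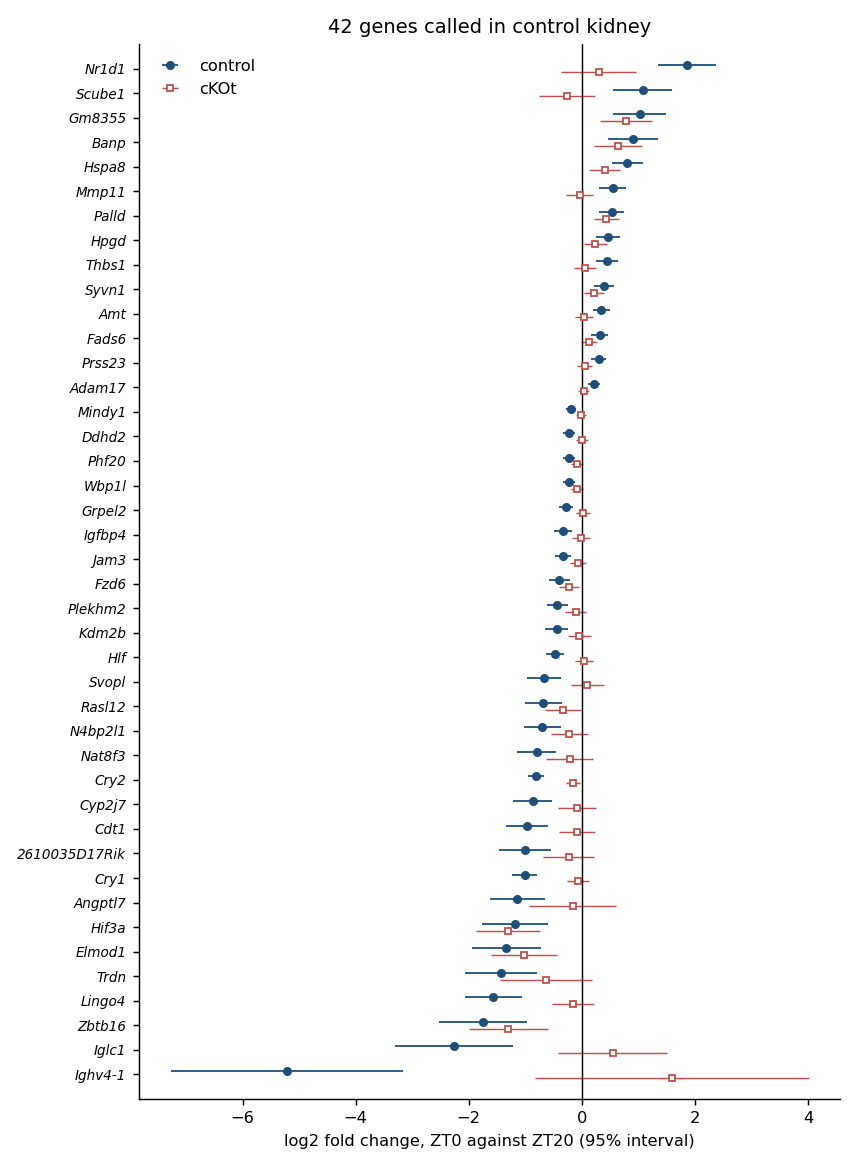
Log2 fold change of ZT0 against ZT20 with its 95% interval for 42 of the genes called in control kidney (filled circles), beside the value of the same gene in cKOt kidney (open squares). Values run from 1.86 for Nr1d1 down through -1.01 for Cry1 to the immunoglobulin segment Ighv4-1, whose control value rests on 2 reads at ZT0.

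Beyond the clock, Hspa8 was the highest expressed gene of those that passed. It encodes the constitutive HSC70 chaperone. Control mice had 800, 858, 530, 775, and 1051 CPM of Hspa8 at ZT20 and 1271, 1294, 1603, 1342, and 1225 CPM at ZT0, with no overlap. The log2 fold change was 0.81 ± 0.14 (SE; adjusted p = 7.41e-04, edgeR), and in cKOt kidney it was 0.41 (adjusted p = 0.18), with no difference between genotypes that passed (adjusted p = 0.49). Hspa8 was at 1481 ± 248 CPM at ZT16, so ZT20 was a low point between 2 higher times, the fall from ZT16 having a log2 fold change of -0.96 (adjusted p = 2.3e-05). The gene shares sequence with other Hsp70 genes, and how reads that fit several genes were counted is not known here. Of 22 heat shock chaperone genes, Hspa8 was the 1 that passed, while 17 had a positive fold change and the median was 0.13, against -0.0072 for all genes. The inducible chaperones Hspa1a (3.63 ± 1.06 and 8.92 ± 2.89 CPM, adjusted p = 0.17) and Dnajb1 (38.7 and 58.2 CPM, adjusted p = 0.21) did not pass. Neither did Hsp90aa1, whose log2 fold change was -0.10.

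Zbtb16, a zinc finger repressor that glucocorticoids induce in many cells, had the largest fitted decrease after the immunoglobulin segments given further on. It had 6.44, 9.86, 17.7, 9.03, and 10.2 CPM at ZT20 and 2.85, 5.70, 3.49, 2.26, and 2.67 CPM at ZT0. The lowest ZT20 mouse was just above the highest ZT0 mouse, and the log2 fold change was -1.74 ± 0.39 (SE; adjusted p = 0.028, edgeR). In cKOt kidney it was -1.30 (adjusted p = 0.073). Its call was lost when any of ZT0 replicates 1, 3, 4, or 5 or ZT20 replicate 3 was left out, and without both ZT20 replicates 1 and 2 the adjusted p was 0.056. Zbtb16 was the 1 of 18 glucocorticoid-responsive genes that passed. In that list 16 genes had negative fold changes, with a median of -0.24, and 7 had an unadjusted p under 0.05. The share of all genes with such a p is given above with the count of genes that passed. Members of this list are regulated together, so their shared sign is not a set of independent observations, and its cause was not tested. Fkbp5, a classic glucocorticoid target, had 172 and 127 CPM (log2 fold change -0.41, 95% interval -0.78 to -0.03, adjusted p = 0.45), and Tsc22d3 (GILZ) had 64.7 and 48.9 CPM (adjusted p = 0.32).

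Palld, which encodes an actin-bundling protein, rose by a log2 fold change of 0.53 (62.6 to 93.3 CPM at ZT20 and 105 to 118 CPM at ZT0, adjusted p = 0.020, edgeR). The change of Palld was 0.44 in cKOt kidney. Prss23, a secreted serine protease, rose by 0.30 from 23.7 to 31.8 CPM at ZT20 to 32.6 to 40.8 CPM at ZT0. These 2, with Nr1d1 and Hspa8, were all the increases that had at least 5 CPM and no overlap. Among 27 extracellular matrix genes Thbs1 (thrombospondin 1) passed, with 48.7 ± 10.3 and 71.0 ± 13.3 CPM and an adjusted p of 0.024. The matrix list had 24 positive values and a median of 0.24, and Col3a1 (16.5 and 27.5 CPM) and Col1a1 (5.10 and 8.90 CPM) did not pass (adjusted p = 0.18 and 0.26). The summed level of the matrix list was 4073 to 4909 CPM at ZT20 (median 4425) and 3954 to 4927 CPM at ZT0 (median 4379). Markers of fibroblasts, mesangium, and smooth muscle, among them Col1a1, Col3a1, and Dcn of the matrix list itself, moved alongside. None of the 7 passed, 6 had positive values, their median was 0.39, and their summed level was 133 to 281 CPM at ZT20 and 233 to 295 CPM at ZT0. Their part in the matrix values was not tested. Without the RUVs factors the median of the matrix list was 0.42.

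Other increases each had an adjusted p between 0.024 and 0.046, and they are named here after their values were seen, apart from Syvn1. Syvn1, the HRD1 ubiquitin ligase of the ER, rose from 37.8 ± 6.58 to 52.2 ± 6.22 CPM and was the 1 of 32 ER folding genes that passed, in a list whose median was 0.010. Hpgd, which inactivates prostaglandins, had 13.5 ± 3.17 and 19.1 ± 4.71 CPM. Amt, of the mitochondrial glycine cleavage system, had 75.0 ± 7.13 and 93.1 ± 12.0 CPM. Fads6, Adam17, Mmp11, Banp, Scube1, and the predicted gene Gm8355 completed the 14 increases. Scube1 had the largest fold of these, from 1.11 ± 0.54 to 2.89 ± 0.87 CPM.

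Lingo4, a leucine-rich repeat membrane protein gene, fell from a low level. Lingo4 had 1.52, 2.46, 1.28, 1.84, and 2.01 CPM at ZT20 and 0.97, 0.62, 0.39, 0.50, and 0.58 CPM at ZT0, from 168 and 56 reads in all. Its log2 fold change was -1.56 ± 0.25 (SE; adjusted p = 1.99e-04, edgeR). In cKOt kidney it was -0.15, and the genotype difference did not pass (adjusted p = 0.072). Whether reads from a neighbouring transcript were counted as Lingo4 was not tested.

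The other decreases with at least 5 CPM and no overlap were smaller than those of Cry1 and Cry2. Nat8f3, of a family of closely similar N-acetyltransferases whose reads may be shared, fell by 0.80 on the log2 scale (7.41 to 11.9 CPM at ZT20 and 2.98 to 6.64 CPM at ZT0). N4bp2l1 fell by 0.70 and Rasl12, a Ras-like protein, fell by 0.68. Kdm2b, a histone demethylase, fell by 0.44, and Jam3, a junctional adhesion molecule, fell by 0.34 from 37.4 ± 4.24 to 30.1 ± 2.55 CPM. Grpel2, a cochaperone of mitochondrial protein import, fell by 0.28 and Ddhd2, a lipase, by 0.22. All had adjusted p values between 0.020 and 0.045 (edgeR), and each lost its call without at least 4 of the 10 mice. Cdt1, which licenses DNA replication origins, passed at 2.69 ± 0.90 and 1.47 ± 0.57 CPM with overlap (adjusted p = 0.0034), as the 1 of 30 proliferation genes, whose median was -0.20.

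A last group of decreases, also named after their values were seen, includes genes of other cell types or of low level. Iglc1, an immunoglobulin light chain constant region, had 28.7 CPM in ZT20 replicate 1 and 2.66 to 5.04 CPM in the other ZT20 mice, against 0.31 to 2.43 CPM at ZT0. Ighv4-1 had 5.53 CPM in the same mouse and 0.27 to 0.84 CPM in the others, with 140 reads at ZT20 and 2 at ZT0. Without that mouse neither gene passed. B cell markers gave only 2 genes that could be tested, neither of which passed, with a summed level of 5.50 to 9.32 CPM at ZT20 and 7.48 to 16.6 CPM at ZT0. Trdn (triadin of the muscle calcium store) had 2.37 to 12.2 CPM at ZT20 and 1.29 to 4.39 CPM at ZT0. Angptl7, which lies within Mtor on the opposite strand, had 14.1 to 36.0 and 5.63 to 15.8 CPM. Cyp2j7, Plekhm2, Elmod1, Wbp1l, Fzd6, Svopl, 2610035D17Rik, Mindy1, Igfbp4, Phf20, and Hif3a completed the 29. The 5 markers of fat cells, a tissue that adheres to the kidney, also had negative values (median -1.80), none of which passed, with a summed level of 39.3 to 87.8 CPM at ZT20 and 31.9 to 53.8 CPM at ZT0. Their part in the decreases was not tested.

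No gene of kidney transport or of the metabolic lists that follow passed over these 4 h. None of 32 proximal tubule transporters passed (median 0.029), and for 31 of them the 95% interval lay within 1.5-fold. The same held for all 28 genes of loop of Henle and distal salt transport (median 0.081) and for 22 of 28 collecting duct genes (median 0.0087), none of which passed. None of 30 genes of PPAR signaling and fatty acid oxidation, 29 of NAD metabolism, 14 of gluconeogenesis and ammoniagenesis, or 38 of autophagy and lysosomes passed, and their medians lay between -0.027 and 0.022. The 95% interval lay within 1.5-fold for all 38 autophagy genes and 13 of the 14 gluconeogenesis genes, but for 25 of the 29 NAD genes and 22 of the 30 PPAR genes, where larger changes could not be bounded. None of 86 oxidative phosphorylation subunits, 80 cytoplasmic ribosomal proteins, and 77 mitochondrial ribosomal proteins passed, with medians of -0.011, -0.092, and -0.011. Fold changes were positive for 37, 6, and 32 of these genes, in the same order, and for 9 of the 38 autophagy genes. The cytoplasmic ribosomal proteins were thus mostly lower at ZT0 by a small amount, and the 95% interval lay within 1.5-fold for 75 of the 80.

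In the list of cholesterol synthesis and uptake, none of the 25 genes passed, while 23 had a positive fold change and 16 (against 9.94% of all genes) had an unadjusted p under 0.05, with a median of 0.20. Sqle, an early enzyme of sterol synthesis, had 75.8 and 95.6 CPM (log2 fold change 0.36, 95% interval 0.13 to 0.59, adjusted p = 0.21). Among 12 clock output genes, none passed and 11 had a negative fold change (median -0.23). Tspan4 had the smallest p of them (27.9 and 23.1 CPM, adjusted p = 0.064, edgeR). Nampt, whose enzyme makes nicotinamide mononucleotide in the NAD salvage pathway, had 248 and 212 CPM (log2 fold change -0.14, 95% interval -0.26 to -0.03). Members of these lists are regulated together, so their shared sign is not a set of independent observations.

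**Figure D5:**
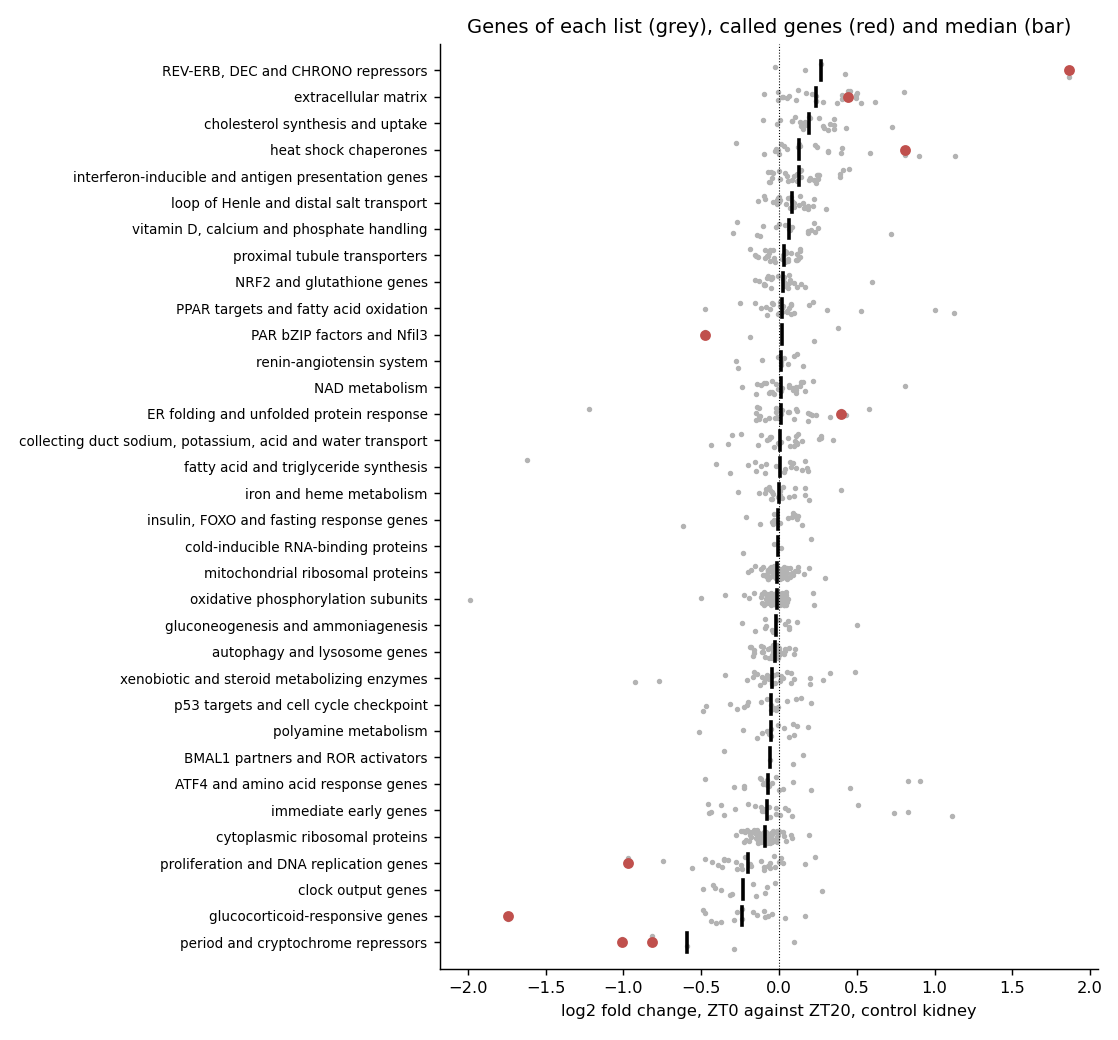
Log2 fold change of ZT0 against ZT20 in control kidney for each tested gene (grey points) of 34 gene lists, with genes that passed in red and the median of the list as a black bar. The medians run from -0.59 for period and cryptochrome repressors to 0.27 for the REV-ERB, DEC, and CHRONO repressors, and no list holds more than 2 red points.

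Markers of kidney cell types did not pass in any of the 16 lists. The medians of tubule segments were between -0.0017 and 0.20, with the highest for thick ascending limb, whose 4 markers summed to 2870 to 5706 CPM at ZT20 and 4712 to 5315 CPM at ZT0. Haemoglobin genes were nearly absent in these perfused kidneys, at 0.056 to 3.07 CPM in all. Library batches held both times in 4 cases, and 1 ZT0 mouse, replicate 5, had no control ZT20 partner in its batch. This mouse, which lay at the edge of its group in several clock genes, is thus not in the values within batches. Within these 4 batches, 40 of the 43 genes moved in the direction of the fit in every one, against 16.0% of all genes that moved in 1 direction in all 4. As the 43 were picked on these same mice, their share is no independent check of the calls. On the log2(CPM + 0.5) scale the difference was 0.63 to 2.58 for Nr1d1, 0.57 to 1.29 for Hspa8, and -0.81 to -0.34 for Hlf.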

How the data were processed

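Kidney RNA was measured by RNA-Seq of polyadenylated transcripts (TruSeq Stranded mRNA, single reads) in 60 mice, 5 for each of 2 genotypes and 6 time points. Per the submitters' processing notes, reads were trimmed with cutadapt 1.8, aligned with STAR 2.5.3a to GRCm38, and counted with HTSeq 0.9.1, and the strand setting and annotation release are not given in the sources used here. The authors deposited raw counts per gene and sample, with 55335 gene IDs, of which 55154 were paired with a symbol by GENCODE M21. HTSeq's rows for unassigned reads were left out of library sizes (7.35 to 8.79% of reads had no feature and 1.03 to 1.19% were ambiguous in the 10 samples compared). These 10 samples held 17834053 to 20369950 counts.

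Genes that reached 1 CPM in any sample (1 or more of the 60) were kept, which left 15546 genes and 99.91% of counts. Counts were scaled by TMM, 2 factors of unwanted variation were estimated from replicates (the RUVs method, rewritten from its description, on log CPM with a prior count of 2 and all genes as controls), and edgeR 4.0.16 (R 4.3.3) fitted the 12 groups with these factors by quasi-likelihood. All 60 samples entered the fit, so groups share 1 estimate of the spread. The control change, the cKOt change, their difference, and the 6 intervals were contrasts of this fit, with p-values adjusted by Benjamini-Hochberg over all genes. The fitting code was tested on simulated data. Alternatives were limma 3.58.1, DESeq2 1.42.0, other scalings and filters, library batch from the sample table of the study, a replicate block, the 10 samples alone, and each mouse left out. Leaving out ZT20 replicates 1 and 2 together was chosen after seeing the data. Replicates are separate mice, and p-values rest on the spread between them that is left after the 2 factors, which were themselves estimated from differences between replicates. Their numbers did not pair the samples: same-numbered mice had correlations of deviations of -0.096 to 0.12.

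The genes named were all 19 members of the 4 clock lists, up to 12 increases and 12 decreases with the largest fold among called protein-coding genes (mean of at least 5 CPM, no overlap of the groups), up to 3 called genes per direction of each pathway list, and the 4 smallest p of the genotype difference in each direction. The comparison, the genes, and the lists were chosen with earlier results of these data known. Promoters came from a RefSeq table of GRCm38.p6. Some genes that the rule names are not reported here, and their points are left out of the plots of genes.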

Additional observations from a re-analysis of the deposited data

Results flagged for a closer look

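Among 144 groups of 5 mice examined for the named genes, 12 held a sample whose gap to its nearest neighbour exceeded Dixon's 95% critical value of 0.71 times the range of the group, and chance alone gives about 5% of groups. In control ZT0 replicate 5, Dbp was at 5.56 CPM, Ciart at 2.61 CPM, and Bhlhe41 at 5.27 CPM, each above the other 4 mice. Control ZT20 replicate 1 had 28.7 CPM of Iglc1, 5.53 CPM of Ighv4-1, and 19.0 CPM of Hpgd, again the highest of their groups. Amt was at 114 CPM in control ZT0 replicate 1, Wbp1l at 110 CPM in control ZT0 replicate 3, and Gm8355 at 1.58 CPM in control ZT20 replicate 5. In cKOt kidney, ZT20 replicate 1 had 36.6 CPM of Zbtb16 and 4.61 CPM of Nr1d1, and ZT0 replicate 4 had a low 0.485 CPM of Hif3a.

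The change from ZT20 to ZT0 differed between control and cKOt kidney by the edgeR test of the difference itself. The difference of the log2 fold changes was -0.66 for Cry2, -0.94 for Cry1, -0.52 for Hlf, and -5.43 for Ighv1-15. The cause of these differences was not tested.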

How the results depend on the processing

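The control count of 43 genes was 27 without the RUVs factors, 4 and 10 with the 10 samples fitted alone without and with batch, 13 without both ZT20 replicates 1 and 2, and 12 to 43 with 1 mouse left out (18, 19, and 12 without ZT0 replicates 1, 2, and 4, and 25 and 21 without ZT20 replicates 2 and 3). It was 60 by DESeq2. Cry2, Cry1, and Nr1d1 were called in all 21 alternatives. The count of genotype differences was 13 by DESeq2 and 3 to 9 with 1 mouse left out. It was 3 without ZT0 replicate 2 or 4 or ZT20 replicate 2, 8 without ZT0 replicate 3, and 9 without ZT20 replicate 1 or 3. The cKOt count was 102 by DESeq2, 17 with batch in place of the factors, 1 without them, and 27 without the filter. Without the factors, ZT0 to ZT4 held 1009 genes, ZT4 to ZT8 20, and ZT8 to ZT12 130. The replicate block gave 37 genes for the control change, 5 for the genotype difference, and 63 for cKOt kidney, and as the numbers do not pair the mice it is given only here. Signs turned for 5 clock genes that had not passed. With 1 mouse left out the log2 fold change was -0.15 to 0.35 for Dbp, -0.038 to 0.41 for Ciart and -0.089 to 0.20 for Per3, each lowest without ZT0 replicate 5 (Per3 was -0.032 without ZT20 replicate 3), and -0.36 without ZT0 replicate 5 to 0.079 for Bhlhe41. With the 10 samples and batch it was -0.018 for Ciart and -0.013 for Per3. Without ZT20 replicates 1 and 2 it was -0.035 for Npas2 and 0.16 for Bhlhe41, and for Bhlhe41 it was 0.071 with the 10 samples, 0.037 with batch, 0.061 without the factors, and 0.0039 without the filter. For the named genes, 1071 other values kept direction and call, 398 kept direction but lost the call, and 16 gained it. The cause of these shifts was not tested. At 56 to 168 reads per group, as for Lingo4, depth limits the precision of a fold change.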
